A study of Mus musculus with 2 samples.

Results

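The genes described here are 36 mouse genes of cholesterol and fatty acid synthesis, out of 27620 genes named on the array. They are a set of named genes of these pathways, and no measured value enters the rule: a probe was a member's where the array named it for 1 of these genes, or by an older symbol, as for Msmo1, which the array calls Sc4mol. They fall by role into 18 enzymes of sterol synthesis, 6 regulators of sterol sensing and 12 enzymes that make, desaturate, elongate or attach fatty acids. They had 69 probes, of which 63 were well above background on both arrays, and 35 of the 36 genes were measured on both.

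The cells, named M/E, came from mouse bone marrow and had been immortalised with the leukaemia fusion gene MLL/ENL. Both groups had the genotype M/E-Mef2c del/-, in which the gene for the transcription factor MEF2C is altered on both alleles, the control culture included. The MEF2C-ASR culture was infected with the retroviral vector MYs-pMef2cASR, which carries a constitutively active MEF2C mutated in its binding to histone deacetylases. The control culture was infected with the empty vector MYs-iPAC. Both were selected with puromycin and then grown in medium with 10% FCS, the cytokines IL3, IL6 and GM-CSF at 10 ng/ml apiece and SCF at 100 ng/ml. RNA harvested after 6, 24 and 48 h was pooled for each culture and hybridised to 1 Agilent whole mouse genome array in 1 colour (Cy3), so each group is 1 pooled RNA on 1 array. There is no replicate, and no test was run or p-value given. "Higher" and "lower" describe these 2 arrays, and a difference is always the log2 level on the MEF2C-ASR array minus that on the control array, after each array was scaled to its 75th percentile of signal (1240 on the MEF2C-ASR array and 1272 on the control array).

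The Mef2c probe that was measured had a signal of 1969 on the MEF2C-ASR array and 795 on the control array, 2.54-fold higher with MEF2C-ASR. Whether that probe reads the vector's transcript, the altered endogenous one or both was not tested. Of 43379 spots, 67.5% were well above background on the MEF2C-ASR array and 60.1% on the control array. As a yardstick for each difference, its spotting error was taken from 144 probes printed 6 to 10 times per array: 0.22 (log2) where the signal was under 300, 0.078 between 300 and 3000 and 0.056 above 3000. Nearly every other probe was printed once, so its error was borrowed from these classes, and it covers spotting only, not cultures, RNA pools or labelling.

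Animal cells build cholesterol from acetyl-CoA through mevalonate, isoprenoids, squalene and lanosterol, and they build fatty acids from the same acetyl-CoA through malonyl-CoA. Many genes of both routes are targets of the SREBP transcription factors, which are held in the endoplasmic reticulum by SCAP and INSIG proteins while sterols are plentiful and are released to the nucleus when sterols run low. Dividing blood cell progenitors use both routes to make membranes, and serum in the medium supplies lipid as well.

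Transcripts of lipid synthesis were lower on the MEF2C-ASR array for 29 of the 35 measured genes and higher for 6, with a median difference of -0.24. The span ran from -1.85 for the desaturase Scd1 to 0.29 for the regulator Srebf2. Over the 16570 genes measured on the array, 55.2% had a difference below 0 and the median was -0.03. Most of the differences were small: 1 member, Scd1, was at least 2-fold lower, where 1.92% of all genes were, and no member measured on both arrays was at least 2-fold higher, where 1.74% of all genes were. Counted against their own spotting error, 25 members were lower by at least 2 errors, a size reached downward by 24.7% of all genes, and 2 members were higher by as much, reached upward by 20.7%. In bulk RNA, fewer cells of a type and less RNA per cell cannot be told apart.

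**Figure D1:**
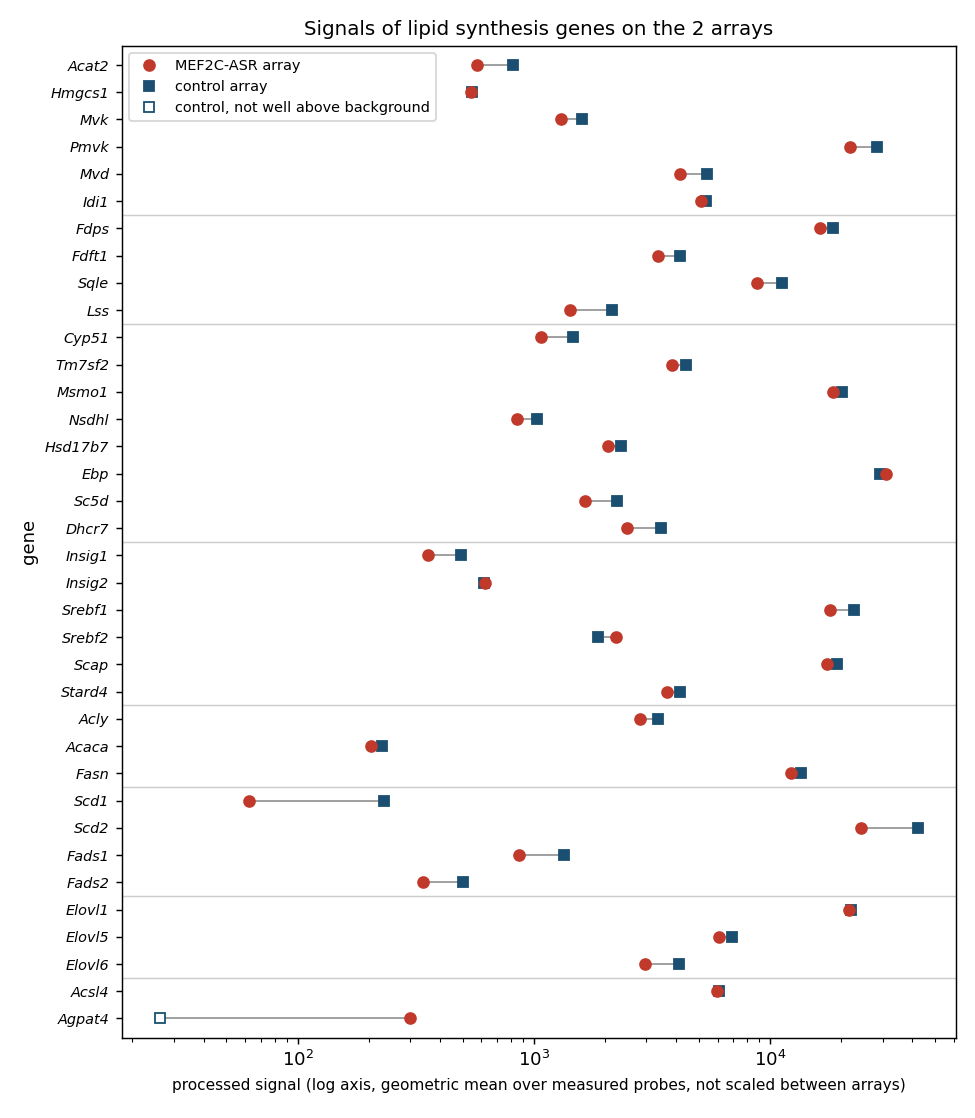
Processed signal of each member on the MEF2C-ASR array (red circles) and on the control array (blue squares), on a log axis and not scaled between arrays, as the geometric mean over the gene's measured probes. A line joins the 2 values of a gene, and levels of different genes come from different probes and are not to be compared. Scd1 has the widest gap toward the control array among the measured genes, and Agpat4, whose control value (open square) is not well above background, the widest toward the MEF2C-ASR array.

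**Figure D2:**
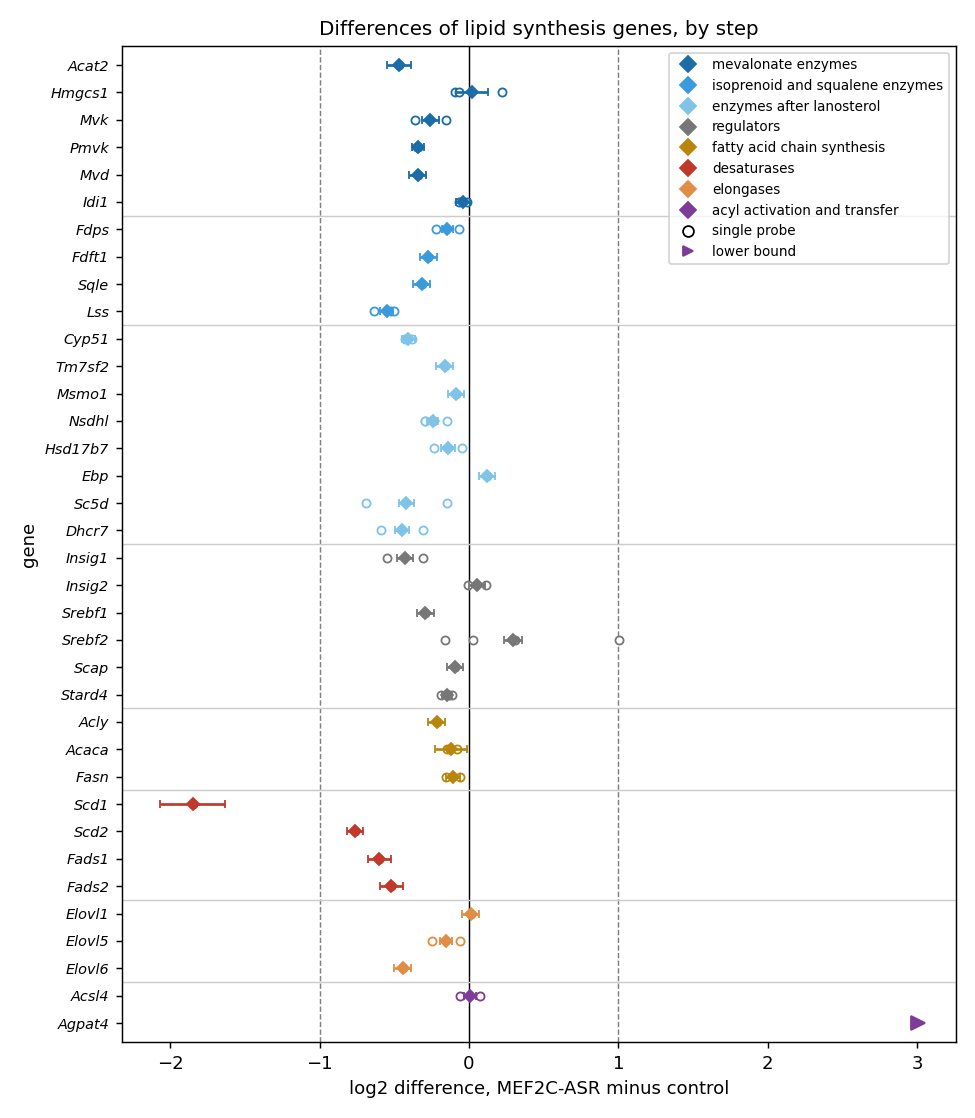
Log2 difference, MEF2C-ASR minus control, of each member in the order of the pathways. Diamonds are gene means over measured probes with bars of 1 spotting error, open circles are single probes of genes with several, the triangle is the lower bound of Agpat4, and dashed lines mark 2-fold. The 4 desaturases lie between -1.85 and -0.52, and the sterol enzymes between -0.55 and 0.12.

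The first 6 sterol enzymes turn acetyl-CoA into isoprenoid units, and 4 of them were lower by at least 2 spotting errors, with a median of -0.30 over the 6. Acat2, which joins acetyl-CoA molecules into acetoacetyl-CoA, had a signal of 573 on the MEF2C-ASR array and 813 on the control array, a difference of -0.47. The difference of Acat3, its relative on the same chromosome, was -0.51, and whether the Acat2 probe separates the pair was not tested. Mvk, the kinase that phosphorylates mevalonate, had signals of 1166 and 1469 on the MEF2C-ASR array at its 2 probes, against 1331 and 1937 on the control array. The 2 differences were -0.16 and -0.36, so both Mvk probes read lower with MEF2C-ASR. Pmvk, which adds the next phosphate, gave 21489 and 22074 at 2 abutting probes with MEF2C-ASR and 28005 and 28659 on the control array. Its probes differed by -0.35 and -0.34, close to the -0.34 of Mvd, the decarboxylase that follows (4171 with MEF2C-ASR and 5431 in the control).

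The other 2 genes of this stretch differed by less than 2 spotting errors. Hmgcs1, which makes HMG-CoA and is a textbook SREBP target, read 11646 on the MEF2C-ASR array and 12756 on the control array at its brightest probe. Its other probes gave 242 with MEF2C-ASR against 260 in the control, and 56.7 with MEF2C-ASR against 49.8 in the control. The 3 probes disagreed in sign, at -0.10, -0.07 and 0.22, and their mean was 0.02; it was below 0 with spike-in scaling, with the brightest or only brighter probes, and with a normexp background correction fitted without flagged spots (called the second background correction here). Idi1, which isomerises the isoprenoid unit, read 20760 and 1244 with MEF2C-ASR and 22250 and 1287 in the control, a mean difference of -0.04. The array's annotation places the Idi1 probes on chromosome 2 and not on the gene's RefSeq chromosome 13, and their accession is not under Idi1 in the RefSeq table, so their identity rests on the array's own naming.

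The promoter of Hmgcs1 is printed because it held the sole match to a sterol regulatory element (TCACNCCAC, searched on both strands) among the members' promoter windows. Windows were found for 29 of the 36 members, and other forms of the element were not searched. All promoter windows shown run from 250 bases before to 50 bases after a RefSeq transcription start in GRCm38.p6, on the strand of the gene, with capitals for every match to a motif searched. This window is chr13:119690101-119690400, plus strand. The element begins at position -137 from the start, and the other 4 stretches in capitals are CCAAT boxes or their reverse complement.
Hmgcs1: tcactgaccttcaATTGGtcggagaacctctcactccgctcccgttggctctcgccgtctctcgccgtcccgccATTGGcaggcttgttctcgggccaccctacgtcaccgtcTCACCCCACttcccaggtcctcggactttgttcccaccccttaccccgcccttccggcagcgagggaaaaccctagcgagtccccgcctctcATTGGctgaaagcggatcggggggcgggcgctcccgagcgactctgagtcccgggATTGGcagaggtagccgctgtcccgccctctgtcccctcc

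The 4 enzymes from farnesyl diphosphate to lanosterol were all lower by at least 2 spotting errors, with a median of -0.29. Fdps, farnesyl diphosphate synthase, read 86060 on the MEF2C-ASR array and 92332 on the control array at its brighter probe, and 3079 with MEF2C-ASR against 3686 in the control at the other. Its differences were -0.07 and -0.22. Fdft1, squalene synthase, read 3365 with MEF2C-ASR and 4165 in the control, a difference of -0.27. A further Fdft1 probe did not stand well above background, and the mean with that dim probe kept was 0.08. Sqle, squalene epoxidase, a rate-limiting step, read 8841 with MEF2C-ASR and 11291 in the control (-0.32).

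Lss, lanosterol synthase, closes the ring system and had the lowest difference of the 18 sterol enzymes. Its 3 probes read 2624, 1498 and 729 on the MEF2C-ASR array, against 3858, 2170 and 1161 on the control array. Each of the 3 was lower with MEF2C-ASR, by -0.52, -0.50 and -0.64, with a mean of -0.55 (1.47-fold, spotting error 0.041). Of all measured genes, 5.60% had a lower difference than Lss. The Lss promoter, chr10:76531355-76531654 on the plus strand, is printed because the gene leads the sterol enzymes, and it held 1 CCAAT box.
Lss: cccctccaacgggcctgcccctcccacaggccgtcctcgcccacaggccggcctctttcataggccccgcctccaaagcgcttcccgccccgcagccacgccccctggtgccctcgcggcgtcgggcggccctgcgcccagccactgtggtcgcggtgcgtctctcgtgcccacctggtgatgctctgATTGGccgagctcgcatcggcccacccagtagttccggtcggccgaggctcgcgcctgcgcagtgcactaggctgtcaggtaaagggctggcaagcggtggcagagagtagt

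The 8 enzymes that convert lanosterol to cholesterol had a median difference of -0.20, and 6 of them were lower by at least 2 spotting errors. Cyp51, the cytochrome that removes a methyl group from lanosterol, had 3 probes that read 1867, 1045 and 635 with MEF2C-ASR and 2577, 1394 and 864 in the control. Their differences, -0.43, -0.38 and -0.41, were nearly equal and gave a mean of -0.41. Tm7sf2, the reductase of the next step, read 3851 with MEF2C-ASR and 4416 in the control, a difference of -0.16. Msmo1, which oxidises the methyl groups at the next position, read 18465 with MEF2C-ASR and 20120 in the control (-0.09, under 2 spotting errors). Nsdhl and Hsd17b7 complete the removal of those methyl groups. The 4 probes of Nsdhl differed by -0.30 to -0.15 and averaged -0.24, and those of Hsd17b7 by -0.24 and -0.04, with a mean of -0.14.

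The last steps split in direction. Ebp, the sterol isomerase, was the 1 sterol enzyme higher by at least 2 spotting errors, with 31133 on the MEF2C-ASR array and 29366 on the control array (0.12, and -0.05 with spike-in scaling). Sc5d, the sterol desaturase that follows it, read 8872 with MEF2C-ASR and 10096 in the control at its brighter probe, and 306 with MEF2C-ASR against 506 in the control at its dimmer one. Both were lower with MEF2C-ASR, but by unlike amounts, -0.15 and -0.69. Dhcr7, a reductase at the end of the pathway, read 9958 and 617 with MEF2C-ASR and 12633 and 950 in the control. Its probes differed by -0.31 and -0.59 (mean -0.45). In both genes the dimmer probe gave the more negative value, and the mean depends on which probe is taken: with the brightest alone it was -0.15 for Sc5d and -0.31 for Dhcr7.

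The Cyp51 promoter, chr5:4104648-4104947 on the minus strand, is printed because its 3 probes gave nearly equal differences, and it held 1 CCAAT box.
Cyp51: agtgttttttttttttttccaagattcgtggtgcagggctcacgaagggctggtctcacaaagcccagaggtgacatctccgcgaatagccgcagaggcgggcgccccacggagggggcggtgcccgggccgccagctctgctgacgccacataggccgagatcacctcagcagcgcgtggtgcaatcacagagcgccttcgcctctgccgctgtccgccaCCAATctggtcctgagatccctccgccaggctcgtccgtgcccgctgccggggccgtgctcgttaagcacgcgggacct

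Of the 6 regulators, 4 were lower and 2 higher, with a median of -0.12. Insig1, which retains SCAP and the SREBPs in the endoplasmic reticulum and is itself induced by SREBP, had the lowest difference of them. Its probes read 477 and 267 on the MEF2C-ASR array, against 717 and 339 on the control array, differences of -0.55 and -0.30 (mean -0.43). Insig2, its paralogue, read 1189 and 325 with MEF2C-ASR and 1225 and 308 in the control. The probes disagreed in sign, and the mean of 0.05 was below 0 with spike-in scaling, with the brightest probe and with a dim probe kept. Srebf1, which encodes the SREBP most tied to fatty acid genes, read 17996 with MEF2C-ASR and 22601 in the control (-0.29).

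Srebf2, which encodes the SREBP most tied to sterol genes, was the other member higher by at least 2 spotting errors, with a mean of 0.29, but its 4 probes did not give 1 answer. The brightest read 22275 on the MEF2C-ASR array and 22410 on the control array, a difference of 0.03, from a spot with a background flag. The next read 3589 with MEF2C-ASR against 2976 in the control (0.31), and another 2239 with MEF2C-ASR against 2568 in the control (-0.16). The dimmest read 139 with MEF2C-ASR against 71.3 in the control (1.00), so the mean rests largely on the dimmest probe. Scap, the escort protein of the SREBPs, read 17512 with MEF2C-ASR and 19173 in the control (-0.09, under 2 spotting errors). The 3 probes of Stard4, a carrier of cholesterol between membranes, differed by -0.19 to -0.12, with a mean of -0.15.

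The Insig1 promoter, chr5:28071162-28071461 on the plus strand, is printed because Insig1 had the lowest difference of the regulators. It held 1 CCAAT box and 1 E-box (CACGTG).
Insig1: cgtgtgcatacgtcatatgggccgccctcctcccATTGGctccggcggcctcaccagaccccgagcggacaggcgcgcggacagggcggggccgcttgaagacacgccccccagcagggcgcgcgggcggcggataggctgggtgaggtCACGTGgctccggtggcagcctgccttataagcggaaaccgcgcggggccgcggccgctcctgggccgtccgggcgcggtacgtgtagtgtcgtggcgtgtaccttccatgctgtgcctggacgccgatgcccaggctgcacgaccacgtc

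The enzymes that build the fatty acid chain were lower by less than the desaturases. Acly, which cleaves citrate to supply cytosolic acetyl-CoA, read 2807 on the MEF2C-ASR array and 3346 on the control array (-0.22). Acaca, which makes malonyl-CoA, gave 1071 with MEF2C-ASR and 1217 in the control at its brightest probe, and its 3 measured probes lay between -0.15 and -0.08 (mean -0.12, under 2 spotting errors). Fasn, fatty acid synthase, read 126392 with MEF2C-ASR and 135106 in the control at 1 probe, from a spot with a background flag, and 1186 with MEF2C-ASR against 1352 in the control at the other (mean -0.11). The 3 genes were all lower with MEF2C-ASR, with a median of -0.12, and 2 of them, Acly and Fasn, by at least 2 spotting errors.

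The 4 desaturases, which put double bonds into finished chains, had the lowest median difference of any role, although the sterol enzyme Lss (-0.55) was lower than Fads2 (-0.52). All 4 were lower by at least 2 spotting errors, with a median of -0.68 and a range of -1.85 to -0.52. Each rested on 1 probe. Of the other desaturases of these families, Scd3 read 106.5 on the MEF2C-ASR array and 122 on the control array (-0.16, under 2 spotting errors), and Fads3 and Scd4 did not stand well above background. Scd1, a stearoyl-CoA desaturase, read 62.5 on the MEF2C-ASR array and 231.2 on the control array, 3.61-fold lower, and 0.39% of measured genes had a lower difference. The Scd1 signal is in the dimmest class, with a spotting error of 0.22, and its difference was -1.13 with the second background correction, where it was still past 2-fold.

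Scd2, a second stearoyl-CoA desaturase, was bright on both arrays, at 24232 with MEF2C-ASR and 42173 in the control. The difference of -0.76 (1.70-fold, spotting error 0.056) was lower than that of all but 3.20% of genes. Fads1 and Fads2, which desaturate polyunsaturated chains, read 867 and 340 with MEF2C-ASR, against 1347 and 499.8 in the control. Their differences were -0.60 and -0.52, 1.51-fold and 1.43-fold lower. All 4 desaturase genes are annotated to chromosome 19, in 2 groups of neighbours. In the array's coordinates, whose genome build was not given, the Scd1 probe is at 44288770 to 44288829 and the Scd2 probe at 44200407 to 44200466. The Fads1 probe is at 9876165 to 9876224 and the Fads2 probe spans 9744385 to 9744815.

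Fads2 was the 1 desaturase with a promoter window in the RefSeq table, chr19:10101454-10101753 on the minus strand. It is printed for that reason. None of the motifs searched was found in it, so no base is in capitals. The windows of the sterol enzyme Acat2 and of the fatty acid enzymes Acaca, Elovl6 and Acsl4 held none either.
Fads2: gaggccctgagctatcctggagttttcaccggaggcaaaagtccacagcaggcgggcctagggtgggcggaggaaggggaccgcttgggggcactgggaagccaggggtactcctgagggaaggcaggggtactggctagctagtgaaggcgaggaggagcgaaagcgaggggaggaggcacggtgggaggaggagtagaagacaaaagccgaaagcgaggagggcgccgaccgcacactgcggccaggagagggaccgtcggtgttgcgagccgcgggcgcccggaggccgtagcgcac

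Of the elongases, which lengthen finished chains, Elovl6 had the lowest difference. It acts on palmitate, and it read 2967 on the MEF2C-ASR array and 4139 on the control array (-0.44, 1.36-fold). Elovl5, which acts on polyunsaturated chains, read 11527 and 3201 with MEF2C-ASR and 12307 and 3897 in the control, with differences of -0.06 and -0.25 (mean -0.15). Elovl1, which makes very long saturated chains, read 21704 with MEF2C-ASR and 22083 in the control. Its difference of 0.01 was within the spotting error and was below 0 with spike-in scaling, quantile normalization, the intensity trend removed and the second background correction. Acsl4, which activates arachidonic acid, gave 0.07 at the probe that read 8297 with MEF2C-ASR and 8086 in the control, and -0.06 at the probe that read 4261 with MEF2C-ASR against 4552 in the control. Its mean of 0.01 was below 0 with spike-in scaling and quantile normalization.

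Agpat4 was the member with the widest gap upward, and it was measured on the MEF2C-ASR array alone. It encodes an acyltransferase that adds a second chain to lysophosphatidic acid on the way to membrane phospholipids. Its probes read 338 and 266 on the MEF2C-ASR array, against 30.3 and 22.5 on the control array, where neither was well above background. Set against the lowest signal well above background on the control array (38.3), Agpat4 was at least 8.02-fold higher with MEF2C-ASR. The probes share 54 of their 60 bases, at chromosome 17, 10937013 to 10937072 and 10937019 to 10937078 in the array's coordinates, so they are close to a repeat of 1 measurement. With the second background correction the bound was lower, at 1.96 on the log2 scale. The Agpat4 promoter, chr17:12119034-12119333 on the plus strand, is printed for this difference and held 2 CCAAT boxes.
Agpat4: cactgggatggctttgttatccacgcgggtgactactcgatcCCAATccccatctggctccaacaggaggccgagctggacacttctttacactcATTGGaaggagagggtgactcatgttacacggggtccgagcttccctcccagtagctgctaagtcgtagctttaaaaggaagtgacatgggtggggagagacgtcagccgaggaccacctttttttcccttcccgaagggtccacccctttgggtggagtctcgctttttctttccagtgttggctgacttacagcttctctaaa

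The 18 sterol enzymes and the fatty acid enzymes were lower by similar medians, -0.27 and -0.22 (11 fatty acid genes measured), a difference between the medians of -0.05. They differed in spread. The sterol enzymes lay within -0.55 to 0.12, with 16 of 18 below 0, 14 lower and 1 higher by at least 2 spotting errors, and none 2-fold apart. The fatty acid enzymes ran from -1.85 to 0.01, with 9 of 11 below 0, 8 lower and none higher by 2 spotting errors. Their mean was -0.43, below their median because of the desaturases, while the mean of the sterol enzymes was -0.25.

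**Figure D3:**
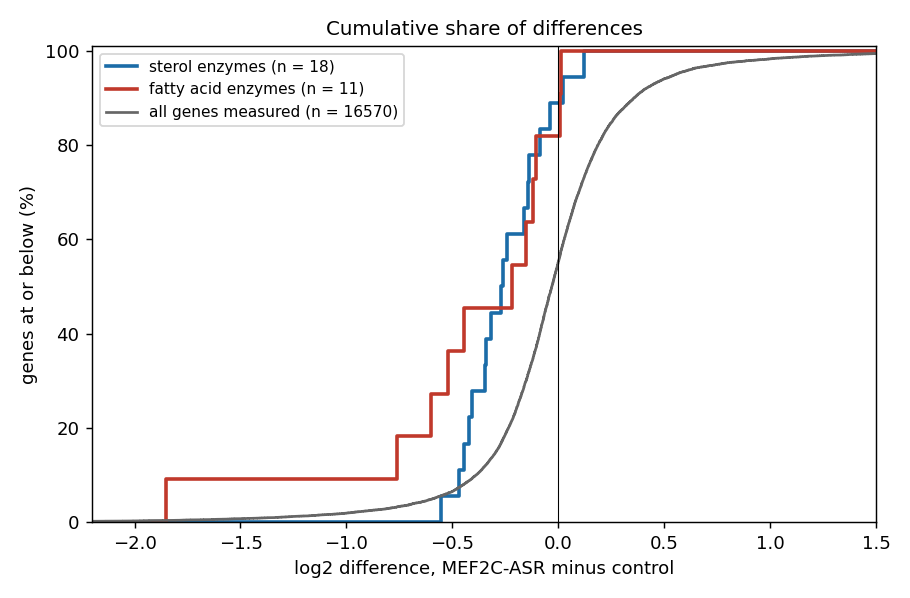
Cumulative share of genes (percent, y axis) at or below each log2 difference, MEF2C-ASR minus control (x axis), for the 18 sterol enzymes, the 11 measured fatty acid enzymes and all 16570 measured genes. The curves of both enzyme groups lie left of that of all genes over most of their range, with medians of -0.27 and -0.22 against -0.03, and the fatty acid curve has the longer lower tail.

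The position of 0 depends on how the arrays are scaled. Scaling to the Agilent spike-in RNAs moved every gene by -0.17, so the median of all genes was -0.20, all 18 sterol enzymes and all 11 fatty acid enzymes were below 0, and Hmgcs1, Ebp, Insig2, Elovl1 and Acsl4 changed sign. Relative to the median of all genes, the median was -0.24 for the sterol enzymes, -0.19 for the fatty acid enzymes and -0.09 for the regulators under both scalings. The sterol and regulator medians were above 0 (0.11 and 0.10) under 1 setting, a normexp background correction fitted on all spots, where the median of all genes was -0.58. In a fit that left out all spots with a mark for uneven local background, the medians were -0.27 for the sterol enzymes and -0.09 for the regulators. What in those spots moved the first fit was not tested.

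**Figure D4:**
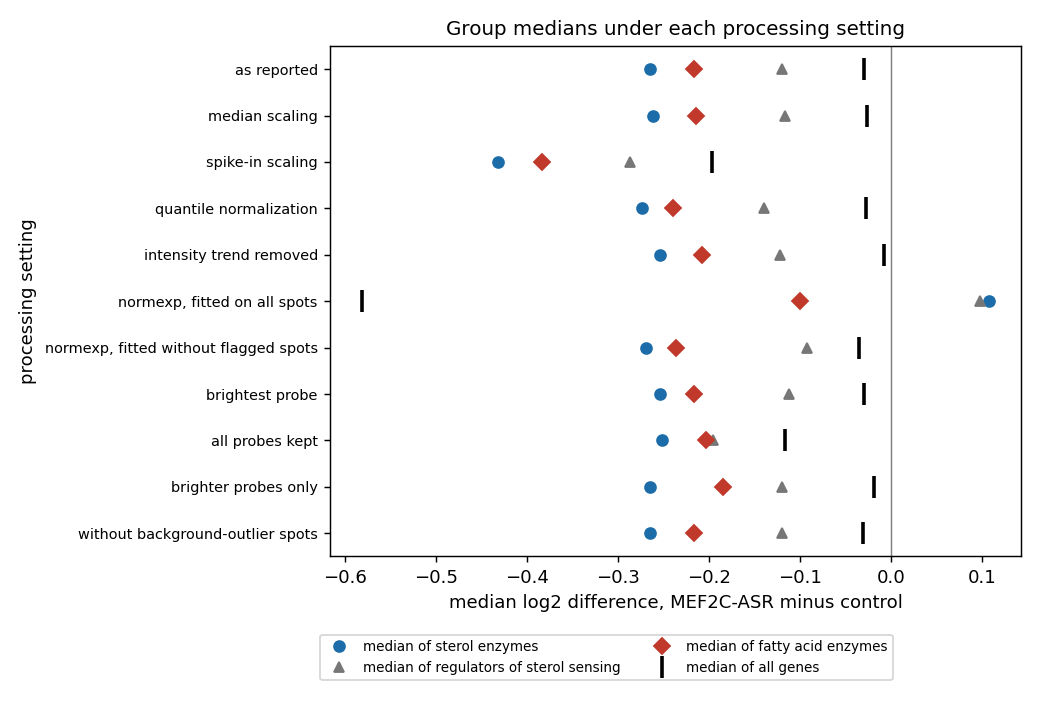
Median log2 difference, MEF2C-ASR minus control (x axis), of the sterol enzymes, the regulators of sterol sensing, the fatty acid enzymes and all genes under each processing setting (y axis). The 3 medians of the members lie left of that of all genes under every setting except normexp fitted on all spots, where they lie right of it.

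RefSeq promoter windows were found for 29 of the 36 members, 38 windows in all, and 32851 windows of the mouse genome served as the comparison. Fdps, Fdft1, Sqle, Stard4, Scd1, Scd2 and Fads1 had none. The CCAAT box, read on both strands as CCAAT, was in 24 of the 38 windows, against 37.4% of all windows. It was in 14 of the 18 windows of sterol enzymes, in 5 of 10 windows of regulators and in 5 of 10 of fatty acid enzymes. The E-box was in 7 of 38 windows, against 7.15% of all windows, and the sterol regulatory element in 1 of 38, against 1.24%. The MEF2 element was in none of the 38, against 0.557% of all windows. With so rare a match, none is likely in 38 windows of any genes, so this count cannot tell whether the members lack MEF2 sites. Binding of MEF2C to the members' promoters was not tested. No 2 different motifs overlapped in the members' windows, and a match is a match of letters, not a site.

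**Figure D5:**
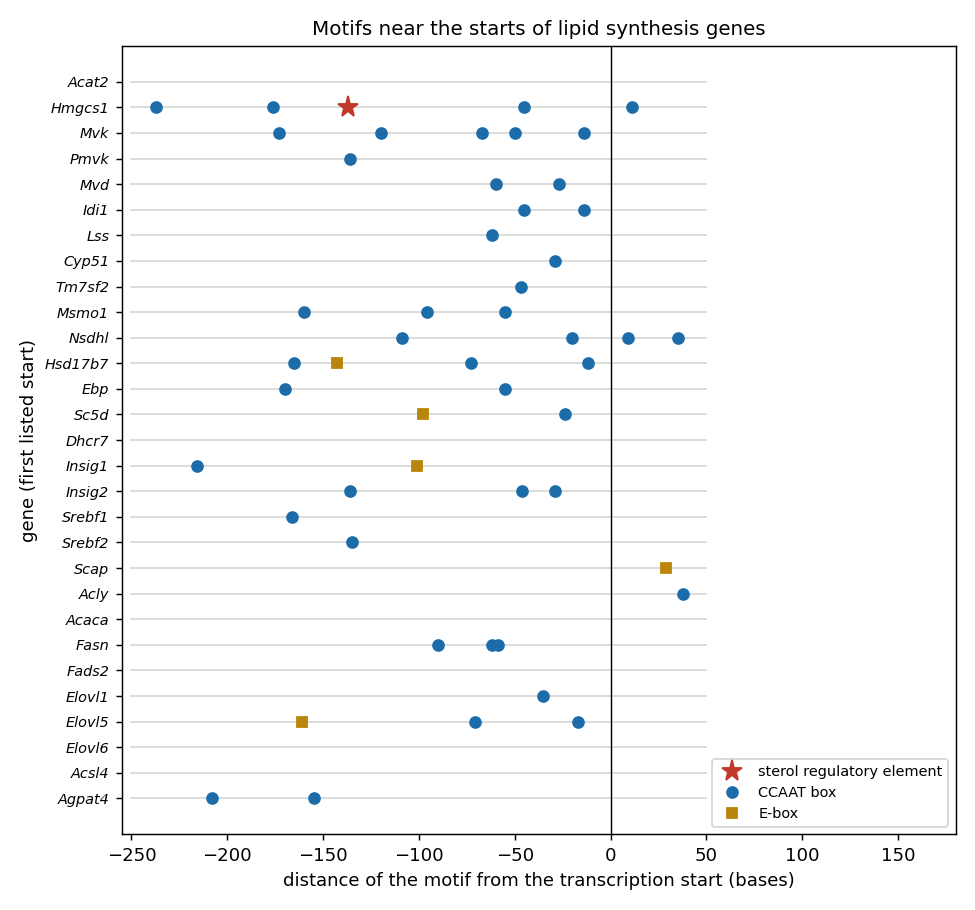
Positions of motif matches (x axis, bases from the transcription start at 0) in the first RefSeq window of each member that has one (y axis, in pathway order). Circles are CCAAT boxes, squares are E-boxes and the star is the sterol regulatory element of Hmgcs1. CCAAT boxes are drawn for every sterol enzyme with a window except Acat2 and Dhcr7, at varied distances from the start.

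Other genes of these pathways, taken from lists, were closer to the array's middle. Of 18 other genes of sterol synthesis and uptake, all measured, 5 were lower and 4 higher by at least 2 spotting errors and none was 2-fold apart, with a median of -0.07. These counts are near the shares over all measured genes, 24.7% lower and 20.7% higher by that size. Of the 18 the brightest were Npc2, which carries cholesterol out of lysosomes, at 0.42 (22578 with MEF2C-ASR and 17244 in the control), and Erlin1, an endoplasmic reticulum protein that takes part in SREBP control, at -0.24 (8835 with MEF2C-ASR and 10700 in the control). Of 32 other genes of fatty acid and glycerolipid synthesis, 25 were measured, with a median of -0.12. By at least 2 spotting errors 9 were lower and 5 higher, to be read against the same shares of all genes. Me1, malic enzyme, which supplies NADPH for fatty acid synthesis, was the 1 gene among them at least 2-fold lower, with a mean signal of 99.3 on the MEF2C-ASR array and 250.1 on the control array (2.46-fold, spotting error 0.16).

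Genes of the opposing routes did not share 1 direction. Of 9 sterol efflux genes and targets of the LXR sterol receptors, 3 were lower and 4 higher by at least 2 spotting errors. Over all measured genes, 24.7% were lower and 20.7% higher by that size. The 9 had a median of -0.05 but a mean of 0.19. The brightest were Lpcat3, a phospholipid acyltransferase, at -0.21, and Nr1h2, which encodes LXR beta, at 0.21. Of 16 measured genes of fatty acid oxidation, 6 were lower and 2 higher by that size, with a median of -0.04. The brightest of them, Acadvl and Acaa2, differed by 0.08 and 0.0021.

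Markers of myeloid cells moved on the same arrays. All 11 of 11 were measured and above 0, 9 of them by at least 2 spotting errors, with a median of 0.50. Of all measured genes, 20.7% were higher by that size. The myeloid markers included Mpo, myeloperoxidase, with 143027 on the MEF2C-ASR array and 68289 on the control array (2.15-fold), and Csf1r, the receptor of macrophage colony-stimulating factor (3.08-fold). Their part in the lower lipid synthesis transcripts was not tested. Of cell types known for high lipid synthesis, the hepatocyte markers Alb, Apoa1 and Ttr did not stand well above background, and Serpina1a had no probe named for it. The adipocyte markers Adipoq and Lep did not either, while Plin1 and Fabp4 did on the MEF2C-ASR array alone, at least 1.64-fold and at least 1.08-fold higher.

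Markers of other cell types were few and mostly dim. Of the lymphocyte markers, Cd3e was higher (0.77, 316 with MEF2C-ASR and 189.8 in the control), and Cd3g and Ms4a1 were not measured on both arrays. Of 4 markers of endothelium and stroma, Col1a1 was higher (0.89, 81.5 with MEF2C-ASR and 45.2 in the control) and Pecam1 lower (-0.22), while Cdh5 and Col3a1 were not measured on both arrays. The erythroid markers Hba-a1 and Epor differed by less than 2 spotting errors, and Hbb-b1 had no probe named for it. The part of these markers in the members' differences was not tested either.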

How the data were processed

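Total RNA of 2 cultures, each pooled from 3 harvests, was measured on 1 single-colour array per culture. The deposited files give each spot's intensity, unlogged, as computed by Agilent Feature Extraction 9.5.1.1 per the file headers, with background subtracted and no normalization between arrays. The deposited value table held the same intensity values (largest relative difference 0). No build for the probe coordinates was given in those sources.

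From the log2 signals, the 75th percentile of the array's 43379 non-control spots was subtracted. Spots marked as outliers were left out (201 on the MEF2C-ASR array and 202 on the control array), and spots of a probe were averaged. Measured probes, 24373 of 41085, were those marked well above background and unsaturated on each array, and their mean gave the value of the gene. A gene well above background on 1 array was given a bound against the lowest signal well above background on the other (19.98 on the MEF2C-ASR array and 38.3 on the control array). Member probes were taken by the array's gene name (69 probes), and the others were named through a RefSeq table of GRCm38.p6: 22859 by accession, 6626 by symbol, 3101 by an older symbol, and 8430 kept the array's name.

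With 1 array per group no test is possible, so a difference of at least 2-fold and a difference of at least 2 spotting errors served as rules of size. Precision is limited by the number of arrays. All members are given by their values. In each other list the genes at least 2-fold apart were named, or the 2 of highest level. The members, lists and rules were chosen with earlier results of these data known. Alternatives were median, spike-in and quantile scaling, removal of the intensity trend, normexp background correction with offset 50, the brightest probe, all probes, brighter probes only, and spots with background marks left out. The steps were tested on simulated data. Python 3.11.15, pandas 2.3.3, R 4.3.3 and limma 3.58.1 were used.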

Additional observations from a re-analysis of the deposited data

How the results depend on the processing

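With spike-in scaling the medians were -0.43 for the sterol enzymes, -0.29 for the regulators and -0.38 for the fatty acid enzymes, through the shift of -0.17 common to all genes. With normexp fitted on all spots, 5 members were at least 2-fold lower, the medians were 0.11 for the sterol enzymes and 0.10 for the regulators, and the sterol median minus the fatty acid median was 0.21, while 6788 of all genes were at least 2-fold lower. With all probes kept, 1 member, Agpat4, was at least 2-fold higher, and with brighter probes only 0 members were at least 2-fold lower, since Scd1 is left out there. Under the other alternatives these medians kept their sign and both counts of members were as reported. Over all genes, the counts at least 2-fold higher and lower were 289 and 318 as reported, 204 and 453 with spike-in scaling, 815 and 1012 with all probes kept, 203 and 109 with brighter probes only, 211 and 6788 with normexp on all spots, and 161 and 121 with normexp fitted without spots marked for background, a setting chosen after seeing the data. No paired analysis was possible because each group has 1 array, and for the same reason no replicate could be left out. Probes near background limit Scd1, Agpat4 and the dimmest probes of Srebf2, Hmgcs1 and Acaca, and 16 members rest on 1 measured probe.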

Other observations

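Several genes next to the members in these pathways had differences larger than most members, and they were picked out after their values were seen. Acss2, which makes acetyl-CoA from acetate, had mean signals of 187 on the MEF2C-ASR array and 300.4 on the control array, a log2 difference of -0.64 over 4 probes. Acacb, the relative of Acaca that limits fatty acid import into mitochondria, had 66.7 with MEF2C-ASR and 111 in the control (-0.70, spotting error 0.16).

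The sterol efflux genes and LXR targets went both ways, and the 3 highest were also picked out after their values were seen. Abcg1, a transporter that passes cholesterol to lipoproteins, read 1199 on the MEF2C-ASR array and 733 on the control array (0.75). Abcg4, its relative, read 241 with MEF2C-ASR and 134 in the control (0.88, spotting error 0.22), and Arl4c, a small GTPase and LXR target, had mean signals over 2 probes of 1583 with MEF2C-ASR and 707 in the control (0.95). Nr1h3, which encodes LXR alpha, read 276 with MEF2C-ASR and 397.5 in the control (-0.49), and Apoe, an apolipoprotein, 1510.0 with MEF2C-ASR and 1763 in the control (-0.19), both lower by at least 2 spotting errors. Abca1, another LXR target, was dim and differed by less than 2 spotting errors, at 43.7 with MEF2C-ASR and 50.6 in the control (-0.18). These values have no replicate check.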
